A study of Mus musculus with 24 samples.

Results

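The genes described here encode proteins of the synapse, in 5 roles: vesicle and release proteins, adhesion molecules, receptors, enzymes and transporters for transmitter, and postsynaptic scaffolds. They were chosen by name, as 34 symbols, and 32 of them had a probe set annotated to that symbol alone, out of 19938 genes with a value. Shank2 had 3 such probe sets, of which the one with the highest mean was used. Vamp2, a vesicle SNARE, shared its probe set with Ubr3, and it and Grin1 were not analysed here. The cells were P19, a mouse embryonal carcinoma line, grown as a monolayer on gelatine. Control cells received ethanol (EtOH, 4 arrays, with no time in their labels). The other 20 arrays were single arrays at 2, 6, 24, 48 and 72 h of 4 agents: all-trans retinoic acid (ATRA, 1 µM), BMS753 (an agonist of retinoic acid receptor α, 1 µM), BMS641 (of receptor β, 0.1 µM) and BMS961 (of receptor γ, 0.1 µM). The question put to these genes was how far neuronal maturation had gone by 72 h in monolayer culture.

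At a synapse, vesicles filled with transmitter fuse with the nerve terminal's membrane when calcium enters. Fusion is driven by the SNARE proteins, among them Snap25 and Stx1a, and calcium is sensed by synaptotagmins. Neurexins on the sending side bind neuroligins on the receiving side, where scaffold proteins hold the receptors in place. Many of these genes are switched on late, after a neuron has stopped dividing, while others are also used by non-neuronal cells for secretion. P19 cells are widely used to study this because retinoic acid can turn them into neurons, most efficiently when they are first grown as aggregates.

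Values are log2 intensities, and a change is the log2 value minus the mean of the 4 EtOH arrays, so that 1 unit is 2-fold. The array medians lay between 6.502 and 6.677, and the array of ATRA at 72 h had the highest. The SDs of the 32 members over the EtOH arrays were 0.02 to 0.16, with a median of 0.08. Members are compared over phases, with the late phase (24, 48 and 72 h) or the early phase (2 and 6 h) of an agent as its repeats, in a limma fit of all 24 arrays. The two-sided p-values were adjusted by Benjamini-Hochberg over all 19938 genes, and genes with an adjusted p under 0.05 are said to be called. The p-values measure the spread between these arrays. The labels do not say whether arrays came from separate cultures, so the spread between the EtOH arrays may be technical. In the treated groups the spread also holds differences between agents in their time courses, since the time terms of the fit are shared between agents. The table gives no detection call, so that a low level cannot be told from background. The cells were measured in bulk, where fewer cells of a type and less RNA per cell cannot be told apart. The embryonal carcinoma label was checked with Pou5f1, a regulator of the undifferentiated state. It averaged 12.90 in EtOH and changed by -7.45 at 72 h of ATRA and -4.02 at 72 h of BMS753. Pou5f1 is the highest in EtOH of a list of 10 genes of that state, whose EtOH means reached down to 4.83. At 72 h of ATRA 9 of the 10 were at least 2-fold lower, beside 4.26% of all genes. At 72 h of BMS753 6 of the 10 were, beside 2.81%.

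The synaptic genes moved in both directions under the 1 µM agents, and they were called in shares near those of all genes. With ATRA late, 14 of the 32 members (43.8%) were called, 8 higher and 6 lower, where 36.9% of all genes were called, 17.9% higher and 19% lower. The median late change was 0.07 over the members and 0.03 over all genes. With BMS753 late, 6 of 32 (18.8%) were called, 1 higher and 5 lower, beside 13.5% of all genes, 6.52% higher and 6.94% lower. Only 2 members, Gabra3 and Gria4, were called and reached 2-fold in these late means, both lower and with both agents, where 4.71% of all genes did so with ATRA and 2.07% with BMS753. Leaving out the 24 h arrays gave 11 calls with BMS753, beside 26.9% of all genes, and leaving out the 72 h arrays gave 3, beside 7.57%.

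**Figure D1:**
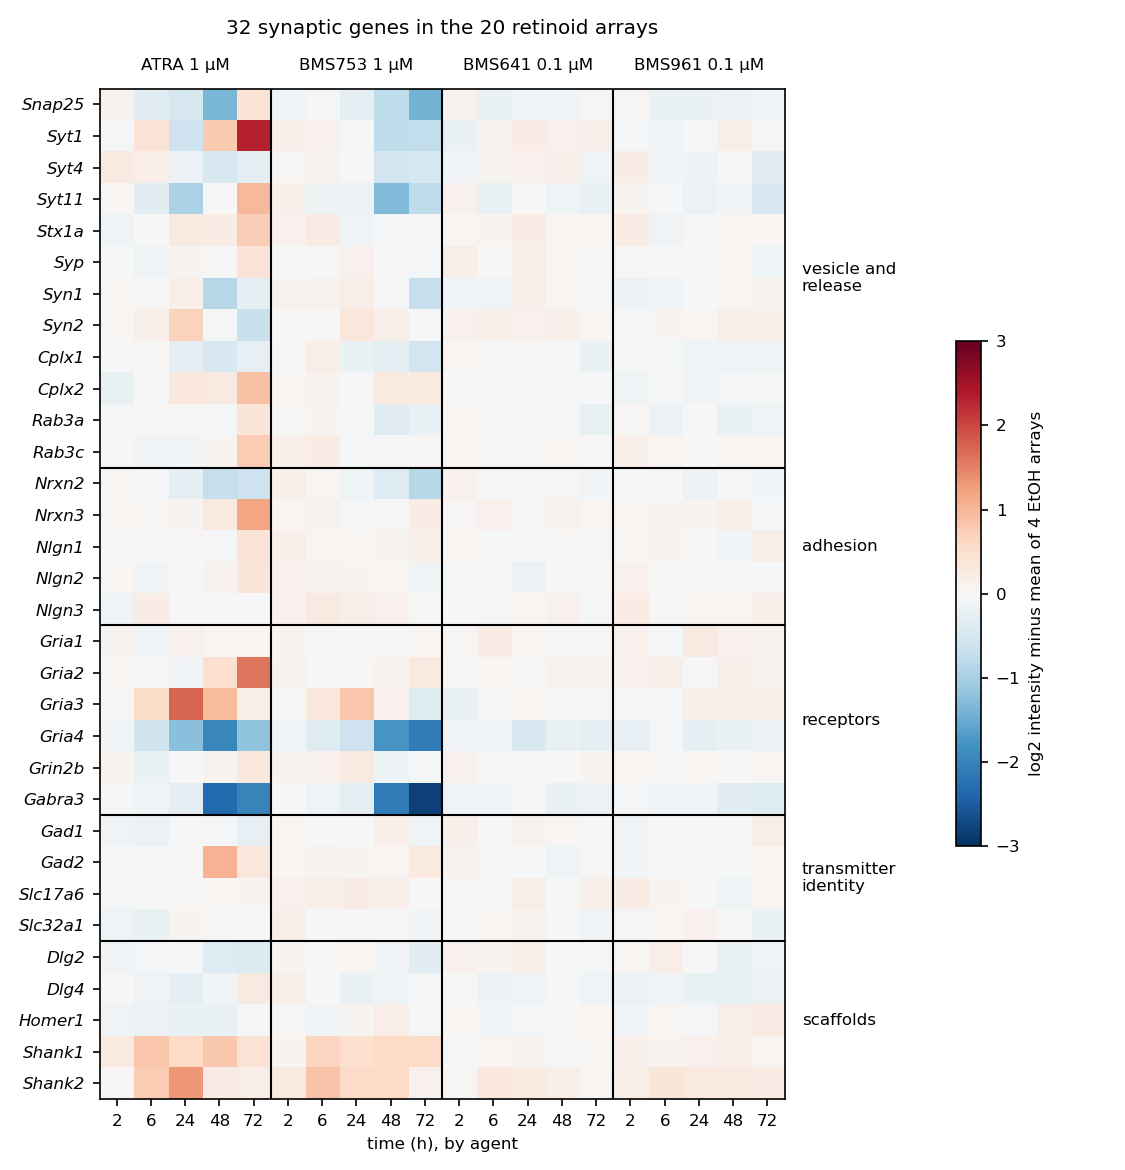
Heat map of 32 synaptic genes (rows, in 5 roles) in the 20 single retinoid arrays (columns, by agent and time in h), coloured by log2 intensity minus the mean of the 4 EtOH arrays. Changes of 0.5 or more occur with the 1 µM agents, mostly at 24 to 72 h, while every value of the 0.1 µM agents lies between -0.45 and 0.36.

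The calcium sensor of fast release, Syt1, showed the largest rise of any member in a single array. Its level was 7.14, 7.20, 7.34 and 7.28 in the EtOH arrays, and 7.18, 7.66, 6.63, 8.03 and 9.56 at 2, 6, 24, 48 and 72 h of ATRA. With BMS753 at the same times it was 7.39, 7.36, 7.23, 6.48 and 6.51. The ATRA array was thus below all EtOH arrays at 24 h and above them at 48 and 72 h, while the BMS753 arrays were below them at 48 and 72 h. Since the 3 late ATRA arrays lay on both sides of EtOH, the mean late change of 0.83 ± 0.40 (SE) was not called (adjusted p = 0.122).

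Snap25, the membrane SNARE of the release complex, was 8.40, 8.38, 8.44 and 8.42 in EtOH. With ATRA it was 8.51, 8.10, 7.93, 7.03 and 8.83 at 2 to 72 h, a dip to the lowest value at 48 h and a return above EtOH at 72 h. With BMS753 it was 8.27, 8.34, 8.11, 7.65 and 6.99, lower at each step from 6 h on. The late change was -0.48 ± 0.28 with ATRA (adjusted p = 0.207) and -0.83 ± 0.28 with BMS753 (adjusted p = 0.0686), neither called. The 3 late BMS753 arrays all lay below the EtOH arrays.

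Syt11, a synaptotagmin that does not sense calcium, moved like these. It was 8.73, 8.52, 8.61 and 8.66 in EtOH and 7.67, 8.61 and 9.60 at 24, 48 and 72 h of ATRA. Its BMS753 values were 8.46, 7.31 and 7.86 at those times. The ATRA series ran from below EtOH to above it, and the BMS753 series stayed below. Syt4, another synaptotagmin that does not bind calcium in the usual way, was lower late with both 1 µM agents: it was 5.99, 5.67 and 5.88 with ATRA, against 6.06 to 6.28 in EtOH, a change of -0.32 ± 0.12 (adjusted p = 0.0449). Its change with BMS753 was -0.37 ± 0.12 (adjusted p = 0.0466). The call with ATRA was lost without EtOH 1, EtOH 3, EtOH 4, the 48 h arrays or the 72 h arrays, and the call with BMS753 without any 1 of the 4 EtOH arrays and without the 48 h or 72 h arrays.

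The plasma membrane SNARE Stx1a rose with ATRA late and did not pass with BMS753. Its level was 6.81, 7.19, 7.05 and 7.07 in EtOH and 7.29, 7.25 and 7.76 at 24, 48 and 72 h of ATRA, all above EtOH. The BMS753 arrays read 6.93, 6.96 and 7.02, inside the EtOH range. The ATRA change was 0.40 ± 0.11 (adjusted p = 0.00992). That call was lost without the ATRA 72 h array.

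The complexins, which clamp and then promote SNARE-driven fusion, went opposite ways with ATRA. Cplx2 was 5.81 to 5.96 in EtOH and 6.22, 6.15 and 6.78 late with ATRA, a rise of 0.49 ± 0.10 (adjusted p = 0.00136). Cplx1 was 7.07 to 7.32 in EtOH and 6.93, 6.74 and 6.95 late with ATRA, a fall of 0.32 on the log2 scale with an SE of 0.09 (adjusted p = 0.0105). Cplx1 also fell with BMS753, to 6.99, 6.89 and 6.61, a change of -0.36 ± 0.09 (adjusted p = 0.0137), while Cplx2's change there, 0.18, was not called. Cplx1 was not called with ATRA without the 48 h arrays, nor with BMS753 without the 72 h arrays.

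The synapsins tie vesicles to the cytoskeleton, and neither was called late against EtOH. Syn1 was 7.63, 7.68, 7.55 and 7.61 in EtOH, 7.78, 6.77 and 7.34 late with ATRA and 7.82, 7.63 and 6.93 late with BMS753. Syn2 was 7.82 to 8.0 in EtOH, 8.61, 7.87 and 7.24 late with ATRA and 8.25, 8.08 and 7.90 late with BMS753. Both were above the EtOH range at 24 h with both agents. Syn1 was below it at 48 and 72 h of ATRA and at 72 h of BMS753, and Syn2 at 72 h of ATRA. Of the remaining vesicle genes, Syp, a vesicle membrane protein widely used to mark synapses, was 6.33 to 6.53 in EtOH and 6.55, 6.44 and 6.85 late with ATRA, a change of 0.15 ± 0.09 (adjusted p = 0.189). The vesicle GTPases Rab3a and Rab3c were not called either, with late ATRA changes of 0.11 and 0.25. Both, like Syp, had their highest value of the ATRA series at 72 h, at 6.43 for Rab3a and 5.45 for Rab3c.

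The Syn1 promoter window from RefSeq (build GRCm38.p6, minus strand, chrX:20920869-20921168) is shown because Syn1 is a classical target of the repressor REST, which silences neuronal genes in other cells. Its capitals mark an RE1-like motif and a cyclic AMP response element.

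Syn1: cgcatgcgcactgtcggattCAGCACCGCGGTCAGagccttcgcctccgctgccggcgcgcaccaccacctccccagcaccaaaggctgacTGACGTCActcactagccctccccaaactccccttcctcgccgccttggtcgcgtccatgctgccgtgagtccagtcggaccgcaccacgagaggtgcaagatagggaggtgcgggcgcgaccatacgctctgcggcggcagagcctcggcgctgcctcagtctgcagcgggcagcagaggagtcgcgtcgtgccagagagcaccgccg

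Such windows run from 250 bases before to 50 after a start, and 24 of the 34 symbols had at least 1, with 37 windows in all. The RE1-like form, the first run of capitals with its weakly conserved positions left free, was chosen after this window had been read. Searched on both strands, it was in 0.0578% of 32851 windows and in that of no member but Syn1, whose own letters set the form. The canonical form of RE1, with fewer positions left free, was in 0.0365% of windows and in that of no member, Syn1 included. The element TGACGTCA was in 1.79% of windows and among members in Syn1 alone. The retinoic acid receptor half-site AGGTCA was in 16.3% of windows and in those of 3 members, Dlg4, Homer1 and Syt1. Rest itself changed by -0.30 ± 0.07 with ATRA late (adjusted p = 0.00210) and -0.26 ± 0.07 with BMS753 (adjusted p = 0.0167), both called. Of the 10 genes of a list of REST and its partners, 3 were higher and 4 lower with ATRA late (70.0% called, beside 36.9% of all genes).

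Among adhesion genes, the neurexins parted. Nrxn3 was 5.32, 5.49, 5.43 and 5.47 in EtOH and 5.51, 5.73 and 6.60 late with ATRA, a rise of 0.52 ± 0.15 (adjusted p = 0.0131) that was not called without the ATRA 72 h array, though it was without the 72 h arrays of all 4 agents. Nrxn2 was 7.86, 8.04, 8.06 and 7.89 in EtOH and 7.67, 7.27 and 7.34 late with ATRA, a change of -0.54 ± 0.11 (adjusted p = 0.00173). With BMS753 Nrxn2 was 7.83, 7.59 and 7.10, a change of -0.45 ± 0.11 (adjusted p = 0.0145), which was lost without the 72 h arrays. Nrxn3 with BMS753 was 5.40, 5.39 and 5.65 and was not called, so ATRA's and BMS753's arrays of Nrxn3 separated most at 72 h. The neuroligins were not called with either agent. Nlgn1, found mainly at excitatory synapses, was 4.60 to 4.66 in EtOH and 4.66, 4.59 and 5.01 late with ATRA (0.13 ± 0.06, adjusted p = 0.110). Nlgn2, found at inhibitory ones, changed by 0.15 and Nlgn3 by -0.01.

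The receptor genes held the members with the widest changes, and those of the AMPA-type glutamate receptor, a fast ion channel of 4 kinds of subunit, followed 4 different courses. Gria2, the subunit that makes the channel nearly impermeable to calcium, was 4.05, 4.00, 4.01 and 4.12 in EtOH. With ATRA it was 4.11, 4.06, 3.97, 4.52 and 5.64 at 2 to 72 h, and with BMS753 4.16, 4.06, 4.04, 4.15 and 4.32. The ATRA arrays at 48 and 72 h stood furthest above EtOH, and the BMS753 array at 72 h less far. The late change with ATRA was 0.66 ± 0.19 (adjusted p = 0.0136), not called without the 72 h arrays.

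Gria3 peaked at 24 h. It was 8.89, 8.91, 8.87 and 8.84 in EtOH and 8.90, 9.43, 10.61, 9.83 and 9.08 at 2 to 72 h of ATRA. BMS753 gave 8.91, 9.23, 9.71, 9.0 and 8.51, above EtOH from 6 to 48 h and below it at 72 h. The late change was 0.96 ± 0.20 with ATRA (adjusted p = 0.00160) and 0.20 ± 0.20 with BMS753, the latter not called.

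Gria4 fell with both 1 µM agents. It was 7.39, 7.44, 7.46 and 7.55 in EtOH and 7.38, 6.87, 6.20, 5.50 and 6.26 at 2 to 72 h of ATRA. BMS753 gave 7.37, 7.09, 6.83, 5.67 and 5.37. All arrays of both agents lay below the EtOH arrays, those at 2 h only just. The late changes were -1.47 ± 0.24 (adjusted p = 0.000262) and -1.50 ± 0.24 (adjusted p = 0.000898). Gria1 stayed between 4.94 and 5.19 with ATRA and was not called. The NMDA receptor subunit Grin2b changed by 0.13 late with ATRA and was not called.

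Gabra3, the α3 subunit of the GABA-A receptor, the main inhibitory channel of the brain, fell the furthest of all members. It was 9.77, 9.65, 9.86 and 9.86 in EtOH and 9.74, 9.65, 9.51, 7.45 and 7.79 at 2 to 72 h of ATRA. The BMS753 values were 9.77, 9.68, 9.51, 7.68 and 6.99. The series thus stayed near EtOH to 24 h and dropped between 24 and 48 h with both agents. The late changes were -1.54 ± 0.32 (adjusted p = 0.00152) and -1.73 ± 0.32 (adjusted p = 0.00246). The calls for Gabra3 and Gria4 were kept under all 15 alternatives run for ATRA and all 14 for BMS753, a 2-fold threshold included.

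The promoter windows of Gria2 and Gabra3 (RefSeq, GRCm38.p6, both minus strand, at chr3:80802786-80803085 and chrX:72656870-72657169) are shown side by side as those of a receptor gene that was higher at 72 h of ATRA and of one that fell. They were picked after the values were seen, and capitals mark CpG dinucleotides.

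Gria2: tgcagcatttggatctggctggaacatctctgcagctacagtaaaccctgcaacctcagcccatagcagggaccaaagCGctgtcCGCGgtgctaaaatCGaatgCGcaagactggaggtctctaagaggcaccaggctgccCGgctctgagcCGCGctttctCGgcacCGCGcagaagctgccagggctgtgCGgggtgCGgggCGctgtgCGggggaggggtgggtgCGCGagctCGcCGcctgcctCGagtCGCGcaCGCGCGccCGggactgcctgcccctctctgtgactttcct

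Gabra3: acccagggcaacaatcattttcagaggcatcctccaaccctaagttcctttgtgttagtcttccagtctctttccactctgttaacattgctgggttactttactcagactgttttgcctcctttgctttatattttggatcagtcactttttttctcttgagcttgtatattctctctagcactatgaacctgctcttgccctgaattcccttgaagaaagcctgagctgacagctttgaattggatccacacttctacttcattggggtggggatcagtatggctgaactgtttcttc

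Gria2's window held 26 CpG, and each of the windows of Gabra3 held 0. This pair does not stand for the other members: the window of Gria4, which also fell, held 17 CpG, those of Syt1, higher at 72 h of ATRA, held 6 and 8, and those of Nrxn3, which rose with ATRA, held 2, 6 and 16. The median was 14 CpG over the 37 member windows and 7 over all windows, and 5.43% of all windows held none. The number of CpG describes the sequence only, and methylation was not measured.

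**Figure D2:**
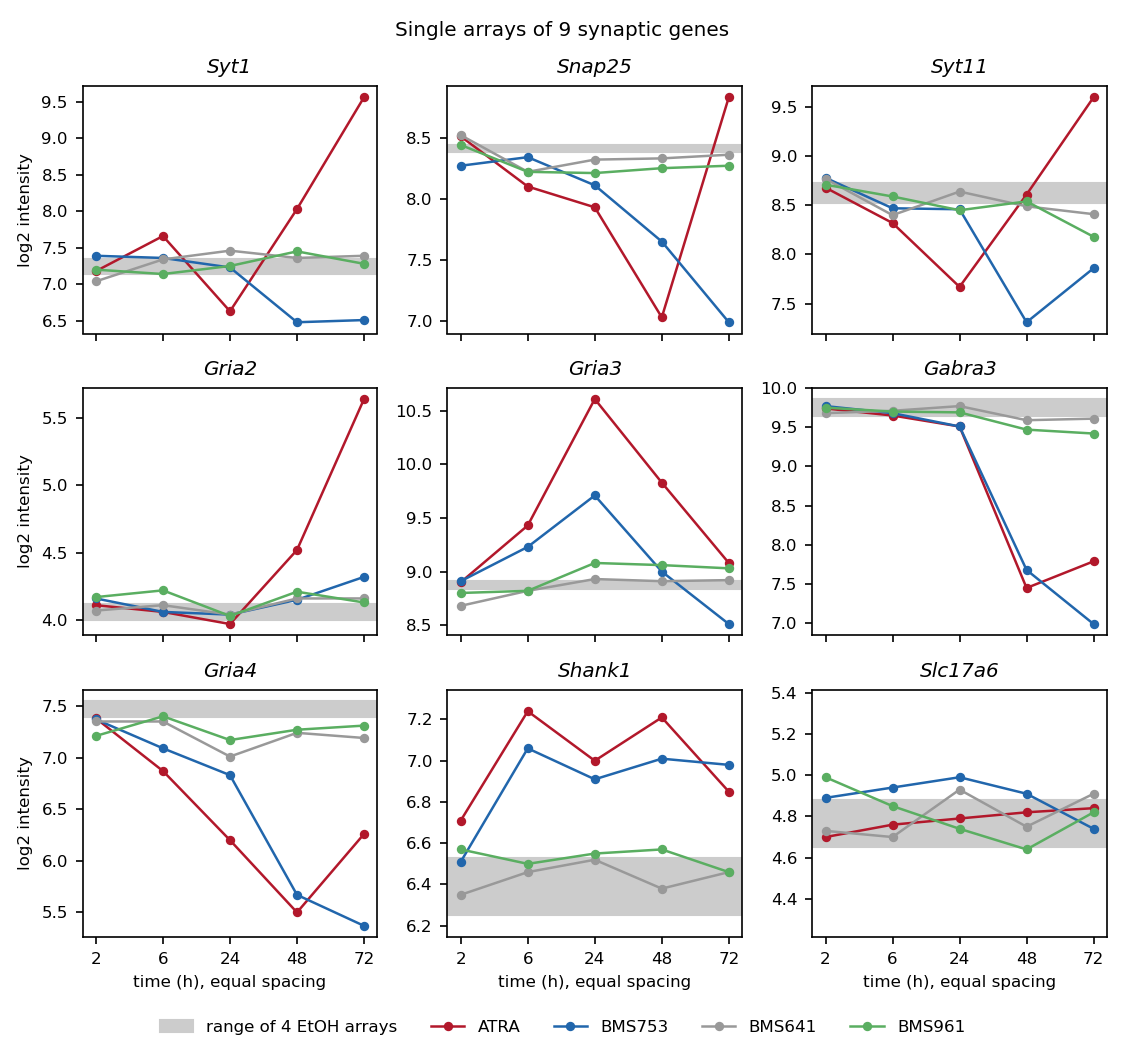
Log2 intensity of 9 synaptic genes against time (h, equally spaced) for the 4 agents, 1 array per point, with the range of the 4 EtOH arrays as a grey band. Syt1, Snap25, Syt11 and Gria2 part between ATRA and BMS753 by 72 h, Gabra3 and Gria4 drop with both, and Slc17a6 keeps near the band in all 20 arrays.

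Of the 4 genes that give a neuron its transmitter, 3 were not called with ATRA late and Gad2 rose. Slc17a6, which loads glutamate into vesicles, was 4.65 to 4.88 in EtOH and 4.79, 4.82 and 4.84 late with ATRA, inside that range (0.06 ± 0.07, adjusted p = 0.508, 95% interval -0.08 to 0.20). Slc32a1, which loads GABA and glycine, was 6.32 to 6.36 in EtOH and 6.44, 6.37 and 6.34 late with ATRA (0.04 ± 0.06, adjusted p = 0.647, interval -0.08 to 0.16). Gad1, an enzyme that makes GABA, was 5.89 to 6.02 in EtOH and 5.94, 5.91 and 5.70 late with ATRA (-0.10 ± 0.07, adjusted p = 0.290, interval -0.26 to 0.05). None of these intervals reaches a change of 1 unit, or 2-fold, in the measured intensity. Slc17a6's EtOH mean, 4.76, was at percentile 15.6 of all genes and may be background. Its interval therefore does not show that its transcript was unchanged. Gad2, the other GABA-making enzyme, was 5.17, 5.23, 5.14 and 5.06 in EtOH and 5.15, 6.20 and 5.50 late with ATRA. Its rise of 0.47 ± 0.15 (adjusted p = 0.0233) came from 48 and 72 h, and it was not called without the 48 h arrays, without the EtOH 4 array or after a second quantile normalization. With BMS753 0 of these 4 genes were called, beside 13.5% of all genes, and 0 had an unadjusted p under 0.05, beside 26.3%, shares against which 4 genes are too few to be read.

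Among scaffolds of the receiving side, of the Shank genes, which build the deepest layer of the postsynaptic density, Shank1 rose late with both 1 µM agents and Shank2 with ATRA. Shank1 was 6.25, 6.41, 6.53 and 6.46 in EtOH and 6.71, 7.24, 7.00, 7.21 and 6.85 at 2 to 72 h of ATRA. With BMS753 it was 6.51, 7.06, 6.91, 7.01 and 6.98. All ATRA arrays and all BMS753 arrays from 6 h on lay above EtOH, and the late changes were 0.61 ± 0.10 (adjusted p = 0.000401) and 0.56 ± 0.10 (adjusted p = 0.00299). Shank1 was the 1 member higher in the late fit with BMS753.

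Shank2 was 8.10, 8.29, 8.21 and 8.26 in EtOH and 8.25, 8.96, 9.50, 8.47 and 8.40 at 2 to 72 h of ATRA. With BMS753 it was 8.47, 9.08, 8.79, 8.81 and 8.35. The ATRA series peaked at 24 h and had come most of the way back by 72 h. The late change was 0.58 ± 0.16 with ATRA (adjusted p = 0.00999), not called without the 24 h arrays, and 0.44 ± 0.16 with BMS753 (adjusted p = 0.0850). Its 3 probe sets had late ATRA means of 0.58, 0.63 and 0.29 above EtOH. Dlg4, the scaffold PSD-95, was 7.84 to 8.04 in EtOH and 7.64, 7.85 and 8.21 late with ATRA, with no net change (-0.04 ± 0.09, adjusted p = 0.770). Dlg2, its relative, changed by -0.26 ± 0.07 with ATRA (adjusted p = 0.00702), a call that leaving out either the 48 h or the 72 h arrays removed. Homer1, which links receptors to calcium stores, changed by -0.16 and was not called.

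**Figure D3:**
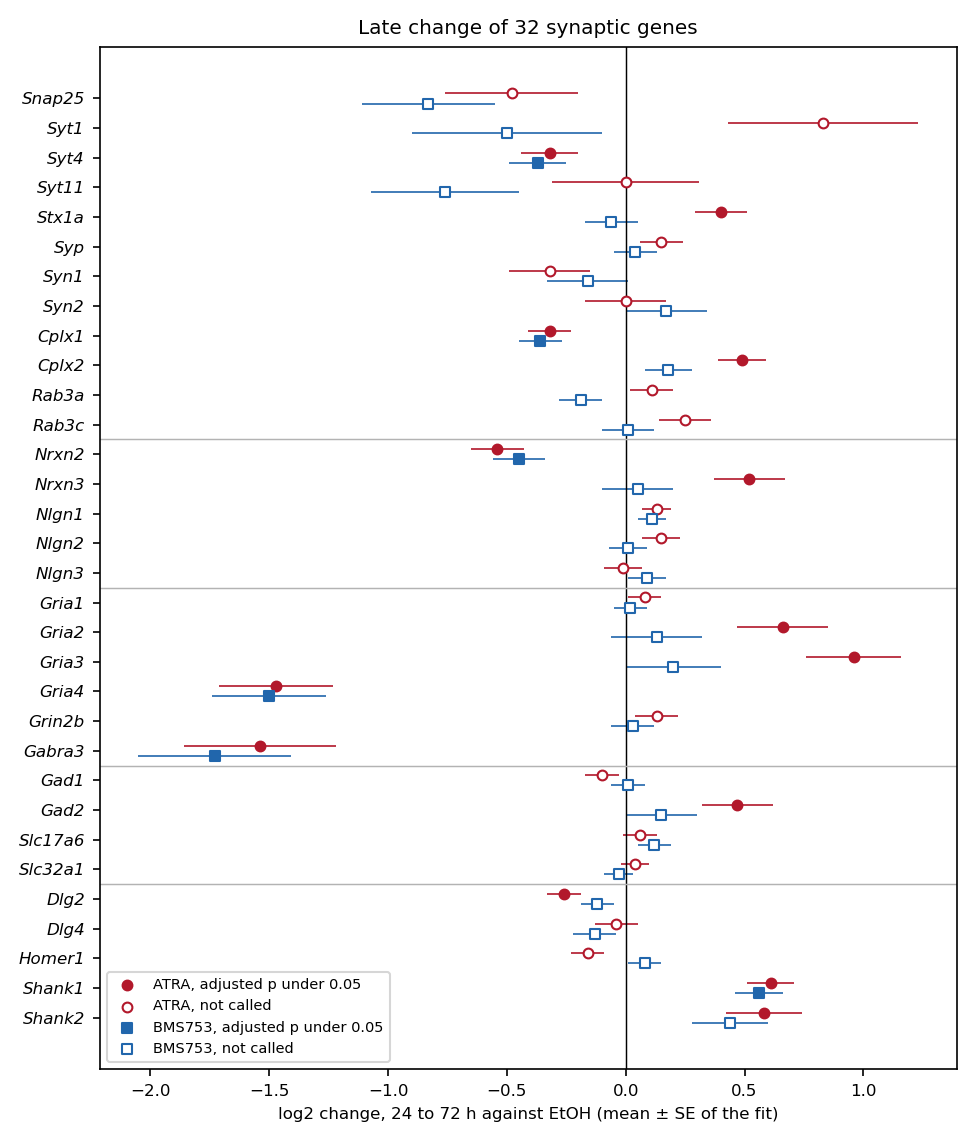
Late change (24 to 72 h against EtOH, log2, mean ± SE of the fit, 3 arrays per agent against 4 EtOH arrays) of 32 synaptic genes with ATRA (circles) and BMS753 (squares), filled where called. Gabra3 and Gria4 lie lowest with both agents, and the 8 members that rose with ATRA lie between 0.40 and 0.96.

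The 3 late arrays of ATRA all lay above the EtOH range for 6 members (Stx1a, Cplx2, Nrxn3, Gria3, Shank1 and Shank2) and all below it for 6 (Syt4, Cplx1, Nrxn2, Gria4, Gabra3 and Homer1). For all genes these shares were 15.1% and 16.2%. With BMS753 they lay above for 3 members (Nlgn1, Shank1 and Shank2) and below for 6 (Snap25, Syt11, Cplx1, Nrxn2, Gria4 and Gabra3), where all genes gave 9.73% and 10.5%.

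The move from 24 to 72 h was tested over both 1 µM agents, with 2 arrays at each time. Here 14 of 32 members were called, 6 higher and 8 lower, beside 33.4% of all genes, 17% higher and 16.4% lower. Higher at 72 h were Gria2 (0.98 ± 0.20, adjusted p = 0.00139), Nrxn3 (0.67 ± 0.13, adjusted p = 0.00131), Rab3c, Cplx2, Dlg4 and Nlgn1. Without the ATRA 72 h array the calls for Rab3c, Cplx2, Dlg4 and Nlgn1 were lost. Lower were Gabra3 (-2.12 ± 0.16), Gria3 (-1.36 ± 0.10), Syn2 (-0.86 ± 0.15), Shank2, Gria4, Syn1, Nrxn2 and Dlg2. The test averages the 2 agents, and Gria4 was lower at 72 than at 24 h with BMS753 only. Its change from EtOH was -1.26 at 24 h and -1.20 at 72 h of ATRA, and -0.63 and -2.09 with BMS753. The call for Gria4 was also lost with robust moderation. The calls for Gabra3 and Gria3 were kept under all 11 alternatives run.

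Single times were described as changes of 1 array from the EtOH mean, and the 2-fold mark is used to count them. At 72 h of ATRA, 5 of 32 members were past it, where 9.58% of all genes were, 5.33% higher and 4.26% lower. Syt1 (2.32, 4.99-fold), Gria2 (1.60) and Nrxn3 (1.18, 2.26-fold) were higher, and Gabra3 (-2.00) and Gria4 (-1.20) were lower. All 5 were also called in a limma fit with a mean for every agent and time. So was every gene past 2-fold in that array, so that fit adds nothing to the 2-fold mark. That fit takes the spread of the lone array from the EtOH arrays, so it says nothing of the spread between treated cultures. Gria2's EtOH level, near 4, may be background, and no fold is given for it. The median of the 32 changes in that array was 0.24, against 0.03 for all genes and -0.05 for the same members at 72 h of BMS753. At 72 h of BMS753, 3 members were past 2-fold beside 5.83% of all genes (2.81% lower), and all were lower: Gabra3 (-2.80, 6.97-fold), Gria4 (-2.09) and Snap25 (-1.42).

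At earlier single times other members were past 2-fold as well. At 24 h of ATRA these were Gria3 (1.74), Shank2 (1.29) and Gria4 (-1.26), beside 2.10% of all genes. At 48 h of ATRA they were Gad2 (1.05), Snap25 (-1.38), Gria4 (-1.95) and Gabra3 (-2.34), beside 6.42%. At 48 h of BMS753 they were Syt11 (-1.32), Gria4 (-1.78) and Gabra3 (-2.11), all lower, beside 3.13% of all genes, 1.77% higher and 1.36% lower. At 24 h of BMS753 0 members were past 2-fold, where 0.492% of all genes were. None of these single values has a replicate.

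ATRA and BMS753 had the same dose and times, so they could be compared directly. Over the late phase 2 of 32 members differed, beside 10.4% of all genes, 4.44% higher with ATRA: Gria3 was higher with ATRA by 0.77 ± 0.21 (adjusted p = 0.0345) and Stx1a by 0.47 ± 0.12 (adjusted p = 0.0242). Neither held under every alternative. With the 6 late arrays alone, paired by time (2 residual degrees of freedom), 0 members and 0.00% of all genes were called. An unadjusted p under 0.05 was found there for 4 members, a count not read, since the share of all genes was not counted for that fit. Without the 48 h arrays both calls were lost, without the 72 h arrays that of Stx1a, and without the 24 h arrays 12 members were called, beside 23.7% of all genes. Syt1 missed the threshold (1.34 ± 0.43, adjusted p = 0.0606, 95% interval 0.41 to 2.26). For Gabra3 the interval of the difference was -0.53 to 0.91, for Gria4 -0.51 to 0.57 and for Shank1 -0.18 to 0.30, which do not show that the agents act alike on them.

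By single times each agent has 1 array, so their differences are given with no test, and they were read after the values were seen. At 24 h 0 members differed by 2-fold, beside 0.893% of all genes. At 48 h Syt1 (1.55) and Syt11 (1.30) were higher with ATRA, beside 3.01% of all genes, 1.48% higher. At 72 h the value of ATRA was above that of BMS753 by 3.05 for Syt1 (8.28-fold), 1.84 for Snap25 (3.58-fold), 1.74 for Syt11 (3.34-fold) and 1.32 for Gria2, beside 4.47% of all genes past 2-fold, 2.89% higher with ATRA. Of these 4, 3 are vesicle and release genes, as are 12 of the 32 members. With 4 genes picked by their values, no role can be read from this. At the same time Gad1, Gad2, Slc17a6 and Slc32a1 differed by -0.12, 0.06, 0.10 and 0.09.

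The step from 24 to 72 h was more positive with ATRA than with BMS753 by 3.64 for Syt1, 2.53 for Syt11, 2.02 for Snap25, 1.51 for Gria4 and 1.40 for Gria2, and more negative for Syn2 (-1.03). These 6 members were past 2-fold in that difference, beside 5.24% of all genes (3.19% more positive with ATRA), and each value rests on 4 single arrays with no test. Gria4's level was 6.20 and 6.26 at 24 and 72 h of ATRA, and 6.83 and 5.37 with BMS753.

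The agents at 0.1 µM changed no member by 0.5 or more in any array. All 320 values of the members in their 10 arrays lay between -0.45 and 0.36 of the EtOH mean, and 0 reached 0.5 in size, where 49 of 192 values in the late arrays of the 1 µM agents did. The lowest values were -0.45, of Gria4 at 24 h of BMS641 and of Syt11 at 72 h of BMS961, where Gabra3 was at -0.37. Gria4 (-0.45 to -0.06) and Gabra3 (-0.37 to -0.01) lay below the EtOH mean in all 10 arrays, and Shank2 (0.03 to 0.36) and Syn2 (0.01 to 0.17) above it, where 3.13% of all genes lay below in all 10 and 4.80% above. With BMS641 the 3 late arrays all lay above the EtOH range for Syt1 and Gria3 and below it for Snap25 and Gria4. With BMS961 they lay above it for Gria3 and Shank2 and below it for Snap25, Gria4 and Dlg4. The shares of all genes were not counted for these, so they are not read as results about the members. Late, 0 members were called with BMS641, beside 0.00% of all genes, and 0 with BMS961, beside 0.00502%. An unadjusted p under 0.05 was found for 0 members with BMS641, beside 3.13%, and for 2 with BMS961, beside 3.86%. Between BMS961 and BMS641 late, 0 were called in the fit of all arrays, beside 0.00%, and 0 had an unadjusted p under 0.05, beside 1.80%. The late differences in that fit ran from -0.21 to 0.14. The median half-width of their 95% intervals was 0.24, so that small differences were not detectable there. A fit of only the late arrays of BMS961 and BMS641, in 3 pairs by time (2 residual degrees of freedom), called 0 members and 69 of all genes. In that paired fit 9 members had an unadjusted p under 0.05. This count is not read, since the share of all genes was not counted for that fit. The 2 fits thus differ, and small differences between these agents are not excluded. Because the dose of BMS641 and BMS961 was lower, their values were not tested against those of the 1 µM agents.

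In the early phase the one call was Shank1 with ATRA (0.56 ± 0.12, adjusted p = 0.0356), beside 0.858% of all genes. That call was lost without EtOH 1, EtOH 2, EtOH 4 or the 6 h arrays. With BMS753 0 were called, beside 0.306%, and with BMS641 and BMS961 0, beside 0.00%. An unadjusted p under 0.05 was found for 3 members with BMS753 (10.4% of all genes), 0 with BMS641 (2.35%) and 1 with BMS961 (2.92%). At 6 h alone Shank1 and Shank2 stood 0.83 and 0.75 above EtOH with ATRA and 0.65 and 0.86 with BMS753, and Gria3 stood 0.55 and 0.35 above it.

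Synaptic genes outside the 34 were read from a list of 75 with a value. With ATRA late 17 were higher and 11 lower (37.3% called, beside 36.9% of all genes), with a median of 0.05. With BMS753 late 4 were higher and 8 lower (16.0%, beside 13.5%), with a median of -0.02. The 4 called genes with the largest late ATRA changes were Glra1 (2.49 ± 0.46) and Glrb (1.50 ± 0.25), which form the inhibitory glycine receptor, the kainate receptor gene Grik3 (-1.80 ± 0.12) and the synaptotagmin Syt9 (-1.35 ± 0.25). The same 4 moved in the same direction with BMS753, which shares the EtOH arrays: 2.05 for Glra1, 0.93 for Glrb, -1.22 for Grik3 and -1.08 for Syt9. Glra2, another subunit of that receptor and named after its values were seen, had a larger late ATRA change than Glrb, 1.82 ± 0.78, but was not called (adjusted p = 0.0802): it was 5.23 above EtOH at 24 h of ATRA, 0.39 at 48 h and -0.14 at 72 h. Glra1 was 4.07 above EtOH at 24 h of ATRA. A list of 22 genes not particular to the synapse held mostly SNARE and trafficking genes. Of these 22, 7 were higher and 7 lower with ATRA late (63.6% called, beside 36.9% of all genes). Among them were Homer3 (1.16), Rab27a (-1.25), Stx3 (-1.14) and Nsf (-0.70), the ATPase that takes SNARE complexes apart.

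Genes of the young neuron, such as those of its cytoskeleton and growth cone, were set beside the synaptic genes. With ATRA late 8 of 18 (44.4%) were higher and 0 lower, beside 17.9% and 19% of all genes, with a median of 0.41. They were led by Dcx (2.71 ± 0.50), Gap43 (2.23 ± 0.24), Dpysl3 (1.67) and Neurod1 (1.51). At 72 h of ATRA 11 of 18 were at least 2-fold higher, with a median of 1.50. There 3 of the 32 synaptic members were, beside 5.33% of all genes. At 72 h of BMS753 4 of 18 were at least 2-fold higher and 2 lower, with a median of -0.22, and 0 of the 32 synaptic members were higher, beside 3.01% of all genes. The lists differ in their genes and probes, so these counts are set side by side without a test.

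**Figure D4:**
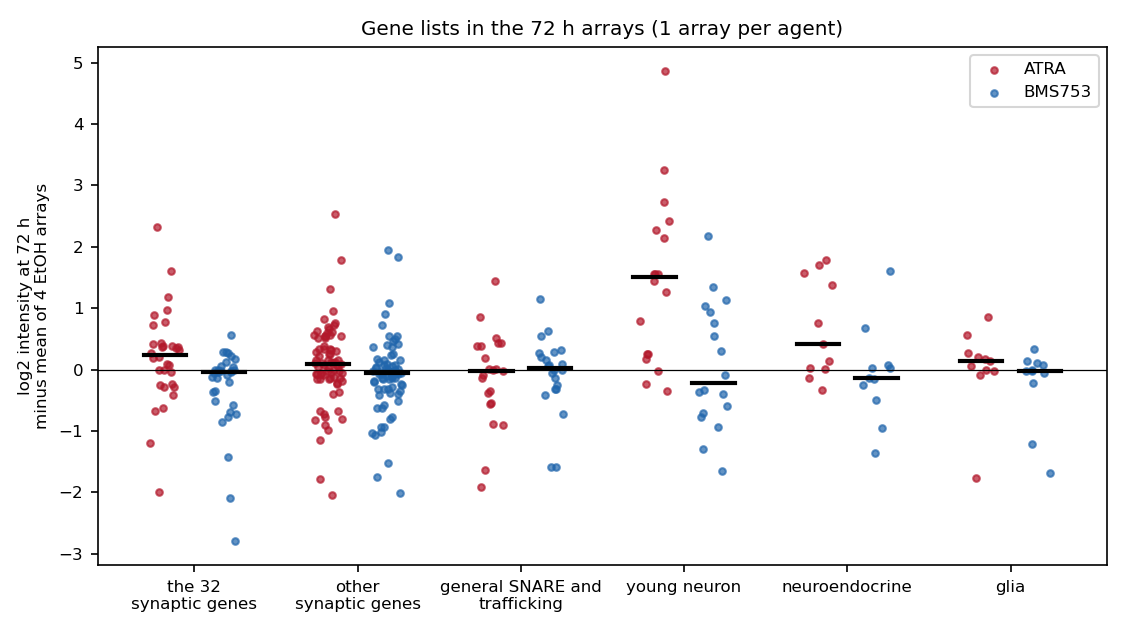
Log2 intensity minus the mean of the 4 EtOH arrays at 72 h of ATRA and of BMS753 (1 array each) for the 32 synaptic genes and 5 other lists, 1 point per gene, with a bar at the median. The median is 0.24 for the synaptic genes and 1.50 for the young neuron list with ATRA, and -0.05 and -0.22 with BMS753.

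Markers of other cell types moved in the same arrays. The mean over 12 fibroblast and smooth muscle genes was -0.04 to 0.02 in EtOH and -0.02 to 1.14 late with ATRA, with 7 of 12 at least 2-fold higher and 1 lower at 72 h. The mean over 10 endoderm genes was -0.05 to 0.04 in EtOH and 0.80 to 1.71 late with ATRA, with 5 of 10 higher at 72 h. The mean over 11 neuroendocrine secretory genes, which share vesicle proteins with neurons, was -0.02 to 0.02 in EtOH and 0.02 to 0.67 late with ATRA, with 4 of 11 higher at 72 h. The mean over 11 glial genes was -0.04 to 0.03 in EtOH and -0.22 to 0.03 late with ATRA, with 0 higher and 1 lower at 72 h. Late with BMS753 these means were 0.01 to 0.49, 0.23 to 1.19, -0.08 to 0.06 and -0.23 to -0.06. At 72 h of ATRA 5.33% of all genes were at least 2-fold higher and 4.26% lower. The values have no true zero, so that no marker can be called absent, and the part of these cell types in the changes of the synaptic genes was not tested.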

How the data were processed

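P19 cells were profiled on 24 Affymetrix Mouse Gene 1.0 ST arrays. The authors deposited log2 intensities per probe set, made with Affymetrix Expression Console 1.1 per the submitters' processing notes. The methods of background correction, summarization and normalization are not given in the sources used here, and the log2 scale was judged from the range, 2.859 to 14.303. Of 35556 probe sets, 21789 had 1 gene symbol in the platform's annotation, 1621 several and 12146 were not named here. The probe set with the highest mean was kept for each gene, which left 19938 genes.

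Fits were made with limma 3.58.1 in R 4.3.3 (lmFit, eBayes with trend=TRUE). In the phase fit EtOH and every combination of agent and phase had means of their own, and time terms were shared by the agents (12 residual degrees of freedom). The comparison of 72 with 24 h had late time terms per dose (10 degrees of freedom). The fit by single times had 3, from the EtOH arrays. The steps were tested on simulated data. The differences between ATRA and BMS753 at single times were added after seeing the data and are given without a test, since each rests on 1 array per agent.

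The members, the lists and the tests were chosen with earlier results of these data known. All members may be named. Full late values are given for called members whose late arrays all lay outside the EtOH range. They are also given for 1 or more members that stand for each role. Syt11, Syn2 and Gad2 have them as well, outside these rules. From each other list at most the 4 called genes with the largest late ATRA change are named. Rest and Pou5f1 are named within that rule. Alternatives were a second quantile normalization, averaging the probe sets of a gene, dropping the lowest 33.3% of genes by mean, robust moderation, a 2-fold threshold (added, or dropped where 1 array is compared), no time term, spread from EtOH alone, fits of only the 6 late arrays of a pair, and fits without 1 EtOH array or 1 time. Precision is limited by the number of arrays. F9 cells were not analysed here.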

Additional observations from a re-analysis of the deposited data

Results flagged for a closer look

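In the 4 EtOH arrays Grin2b had 1 array apart from the other three: its lowest value, 5.34, lay away from the rest, which reached 5.42, with a gap of 0.869 of the range, above Dixon's 95% limit for 4 values. Of 32 members tested this was the only one, and chance alone gives about 1 in 20.

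The late difference between ATRA and BMS753 was called for Stx1a (0.47) and Gria3 (0.77). That comparison gave 0 calls with the 6 late arrays alone.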

How the results depend on the processing

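No call of a member changed its direction under any alternative run. With an added 2-fold threshold, calls went from 14 to 2 with ATRA late, from 6 to 2 with BMS753 late, from 14 to 2 for 72 against 24 h, from 2 to 0 for ATRA against BMS753 late and from 1 to 0 early. Without the 2-fold limit, they went from 5 to 25 at 72 h of ATRA. With spread estimated from EtOH arrays alone there were 7 calls early, 13 with BMS753 late (31.3% of all genes), 3 with BMS961 late (2.29%) and 13 for ATRA against BMS753 late (35.2%). That last comparison gave 1 call with no time term, 0 with the 6 late arrays alone, 4 without the third of genes with the lowest mean and 1 without the ATRA 72 h array; early calls were 0 with no time term. Leaving out the third of genes with the lowest mean left 3 calls at 72 h of ATRA, since Gria2 and Nrxn3 were not tested there. Leaving out an EtOH array or a time in turn gave 0 to 1 calls early, 11 to 19 with ATRA late, 3 to 11 with BMS753 late and 0 to 12 for ATRA against BMS753 late. Without the ATRA 72 h array ATRA late had 13 calls. Counts in this paragraph with no share of all genes beside them are not read as results about the members. The labels give arrays no replicate numbers that pair agents with EtOH. ATRA and BMS753 share their times, which every phase fit has as terms, and the fit of their 6 late arrays alone is the one paired by time (0 calls, 2 residual degrees of freedom).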
